A study of Mus musculus with 12 samples.

Results

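The genes described here encode enzymes that remove superoxide and peroxide, enzymes of the cellular answer to oxidants, and metallothioneins. They were the 10 genes Sod1, Sod2, Sod3, Cat, Hmox1, Nqo1, Gclc, Gclm, Mt1 and Mt2, found by an exact match in the symbol column of the array, which listed 34509 symbols on 46632 probes. They had 12 probes, of which 8, for 8 genes, were detected on at least 4 of the 12 arrays and were tested with 18200 probes in all. A probe was called detected on an array when its detection p-value, from the deposited detection score, was under 0.05.

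RNA was measured in femoral head cartilage explants of 21-day-old TS-4/5∆cat mice, which lack the catalytic domains of the aggrecanases ADAMTS-4 and ADAMTS-5. All groups, controls included, carried this deletion. Explants were pre-cultured for 24 h with 4 hips per well according to the labels, and were then left untreated or treated for 3 days with IL-1α at 10 ng/mL, an inflammatory cytokine that drives cartilage breakdown, or with retinoic acid at 10 µM, a vitamin A metabolite that also does so. Each treatment had 4 arrays, 2 in batch 1 (the Donut line) and 2 in batch 2 (the Gertrude line), so that batch and line cannot be told apart. The methods give 3 mice per treatment, whereas each treatment here has 4 arrays. The labels describe several hips per well, whereas the methods describe separate, unpooled mice in serum-free medium, and neither says which arrays came from separate animals. The p-values therefore measure only the spread between these arrays, which may be technical.

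Superoxide dismutases turn superoxide into hydrogen peroxide, with SOD1 in the cytosol, SOD2 in mitochondria and SOD3 bound to the extracellular matrix, and catalase breaks hydrogen peroxide down. Heme oxygenase-1, the quinone reductase NQO1 and the catalytic and modifier subunits of glutamate-cysteine ligase, GCLC and GCLM, which make the first step of glutathione synthesis, are well-known targets of the transcription factor NRF2. Metallothioneins are small cysteine-rich proteins that bind zinc and copper, and their genes respond to metals through MTF1 and to inflammatory and glucocorticoid signals.

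Differences below are on the log2 scale of normalized intensity, with standard errors (SE), and p-values from limma were adjusted over all kept probes by Benjamini and Hochberg. IL-1α raised 6 of the 8 tested genes, Sod2, Sod3, Hmox1, Nqo1, Gclm and Mt2, and lowered none. Of all 14317 genes tested, 30.2% were called in this comparison, 15.1% as higher and 15% as lower. The genes here, and the wider lists below, were chosen with earlier results of these data known. Shares of all genes are therefore set beside them as a description and not as a test. Retinoic acid lowered 4 of the 8, Sod2, Sod3, Nqo1 and Mt2, and raised none, where 36.7% of all genes were called, 18.1% as lower and 18.6% as higher. Set directly against IL-1α, retinoic acid gave lower values for the same 6 genes that IL-1α had raised, and 32.5% of all genes were called, 16.4% as lower and 16.1% as higher. Both comparisons with untreated cartilage use the same 4 untreated arrays. The direct comparison is the difference between those comparisons, so it is not separate evidence. Hmox1 and Gclm, lower in it, were not called with retinoic acid against untreated cultures. The median log2 difference over the 8 genes was 1.36 with IL-1α and -0.30 with retinoic acid, and over all genes it was 0.01 in each. Sod1 and Mt1 passed the test in none of the 3 comparisons. In bulk tissue, fewer cells of a type and less RNA per cell cannot be told apart.

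**Figure D1:**
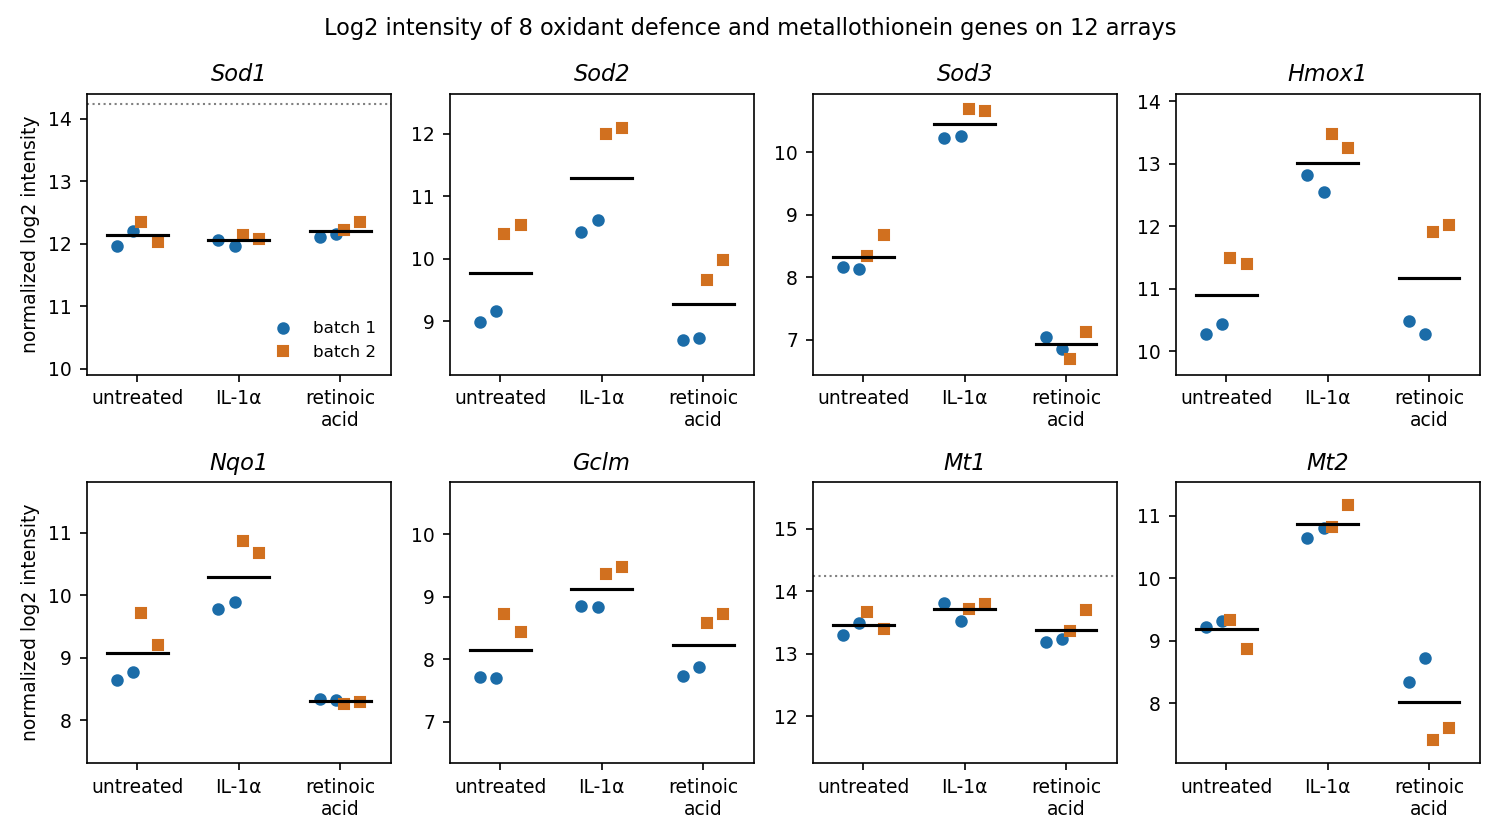
Normalized log2 intensity of the 8 tested genes on each of the 12 arrays, by treatment and batch; the dotted line is the highest value of the normalized scale, 14.24. Sod3 lies between 10.22 and 10.69 with IL-1α and between 6.69 and 7.12 with retinoic acid, and Mt1 lies near the dotted line throughout.

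The arrays had median raw intensities between 34.3 and 63.3, and 13786 to 14965 probes were detected on an array of batch 1 against 16732 to 19485 in batch 2. Pairs of arrays of 1 treatment and batch correlated at 0.983 to 0.995 over the kept probes, and pairs of 1 treatment from different batches at 0.868 to 0.902. No pair of the 66 held identical values. Of 13 tested chondrocyte marker genes, 9 were lower and 1 was higher with IL-1α and 11 were lower with retinoic acid, with a summed linear level of 79060 to 98270 in untreated, 46670 to 65140 in IL-1α and 16270 to 23160 in retinoic acid cultures. The 1 higher marker, 1810013L24Rik on the array (log2 difference 0.37, limma adjusted p = 0.0269), was matched to the list through an alternative symbol. Whether that symbol stands for a chondrocyte gene was not checked. Matn3 was detected on no array, and Lect1, which encodes chondromodulin, was detected in untreated cultures only. The neutrophil marker list had a sum over 11 tested genes of 17710 to 27390 in untreated cultures, 33740 to 36640 with IL-1α and 13660 to 18440 with retinoic acid. In batch 2 its mean sum was 18440 untreated and 18050 with retinoic acid. Of the 11, only Lcn2 was higher with IL-1α, from 12.93 to 13.97 on the log2 scale (limma adjusted p = 0.0217), and 10 were not called. Bright genes such as Lcn2 weigh most in a linear sum. With retinoic acid 7 of the 11 were lower than without and 7 lower than with IL-1α. Mmp8 alone of the list was undetected on all 4 arrays of a treatment, in both treated groups. Macrophage markers moved otherwise, with 2 of 10 higher and 6 lower in IL-1α cultures, 6 higher in retinoic acid cultures, and sums of 6574 to 8024, 5290 to 9022 and 9709 to 10700 in untreated, IL-1α and retinoic acid cultures, and the macrophage marker Itgam was undetected in all 3 treatments and Fcgr1 in untreated and IL-1α cultures. Of 9 osteoblast markers 6 were lower with IL-1α, and 6 were lower and 1 higher with retinoic acid, with sums of 16180 to 22970, 8429 to 16990 and 11400 to 16690 in untreated, IL-1α and retinoic acid cultures, and Dmp1 and Sost were undetected throughout. Of 7 osteoclast markers 3 were higher with each treatment, with sums of 2100 to 5396, 4111 to 5781 and 3393 to 7747 in the same order, and Calcr and Atp6v0d2 were undetected throughout. Of 5 adipocyte markers 5 were lower with IL-1α, and 4 were lower and 1 higher with retinoic acid, with sums of 2679 to 3425, 826.4 to 1235 and 1617 to 1995, and Fabp4, Lep, Plin and Retn were undetected throughout. Of 11 endothelial markers 6 were lower with IL-1α, 3 were higher and 1 lower with retinoic acid, and 8 were higher and 1 lower in retinoic acid than in IL-1α cultures, with sums of 3795 to 5018, 1853 to 2925 and 5091 to 5280, and Tek and Tie1 were undetected with IL-1α. The part of any of these cell types in the results below was not tested.

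Of the superoxide dismutase genes, that of the extracellular enzyme had the largest log2 difference in each comparison. The Sod3 probe (ILMN_1241892) gave 8.17, 8.14, 8.34 and 8.68 in untreated cultures, where the first 2 values of each such series are batch 1 and the others batch 2. With IL-1α it gave 10.22, 10.26, 10.69 and 10.67, and with retinoic acid 7.05, 6.85, 6.69 and 7.12. The 3 treatments did not overlap, with IL-1α above and retinoic acid below the untreated cultures in both batches. The mean was 8.33 ± 0.25 in untreated, 10.46 ± 0.25 in IL-1α and 6.93 ± 0.19 in retinoic acid cultures (SD, n = 4 each). Sod3 rose 4.37-fold with IL-1α (log2 difference 2.13, SE 0.14, limma adjusted p = 2.41e-07) and was 2.65-fold lower with retinoic acid (log2 difference -1.40, SE 0.14, limma adjusted p = 3.78e-06). Between the 2 treatments the values were 11.6-fold apart (log2 difference -3.53 for retinoic acid minus IL-1α, limma adjusted p = 1.27e-09). In each of these comparisons the exact permutation test over the arrays, two-sided, gave p = 0.0286, the smallest that 4 arrays against 4 allow. By rank of log2 difference among the 14317 genes, Sod3 was number 47 from the highest with IL-1α and number 381 from the lowest with retinoic acid.

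The mitochondrial enzyme gene Sod2, a classical target of IL-1 signalling through NF-κB, differed between the batches as well as between treatments. Its probe (ILMN_2650281) gave 8.99, 9.17, 10.41 and 10.55 without treatment. It gave 10.44, 10.62, 12 and 12.10 with IL-1α, and 8.70, 8.73, 9.67 and 9.99 with retinoic acid. Within each batch the IL-1α arrays lay above and the retinoic acid arrays below the untreated ones, while over both batches together untreated and IL-1α arrays overlapped and so did untreated and retinoic acid arrays. Batch 2 was higher by 1.34 on the log2 scale over all treatments. Sod2 rose 2.84-fold with IL-1α (log2 difference 1.51, SE 0.12, limma adjusted p = 1.80e-06), by 1.45 in batch 1 and 1.57 in batch 2. The exact permutation test, which ignores the batch, gave p = 0.0571. With retinoic acid it was 1.42-fold lower (log2 difference -0.51, SE 0.12, limma adjusted p = 0.00529), at -0.36 in batch 1 and -0.65 in batch 2. This call was lost when arrays were scaled to a common median in place of quantile normalization (log2 difference -0.31, limma adjusted p = 0.179) and in batch 1 alone, a split added after seeing the data (limma adjusted p = 0.0542). Retinoic acid and IL-1α cultures were 4.04-fold apart (limma adjusted p = 4.86e-08), with no overlap of the 8 arrays.

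The cytosolic enzyme gene Sod1 passed the test in no comparison. Its brighter probe (ILMN_2752552) lay at 12.13 ± 0.17 in untreated, 12.06 ± 0.07 in IL-1α and 12.21 ± 0.10 in retinoic acid cultures (SD, n = 4 each). The log2 difference was -0.07 with IL-1α (95% interval -0.32 to 0.18, limma adjusted p = 0.683) and 0.07 with retinoic acid (95% interval -0.18 to 0.32, limma adjusted p = 0.676). The retinoic acid arrays lay above the IL-1α arrays within each batch, and the log2 difference between them was 0.14 (95% interval -0.11 to 0.39, limma adjusted p = 0.396; exact permutation p = 0.0571). A second Sod1 probe (ILMN_1236313) was detected on 2 of 12 arrays and was not tested. Cat had 1 probe (ILMN_1254174), which was detected on no array, with raw intensities between 33.5 and 64.6. Gclc likewise had 1 probe (ILMN_2608016), at 28.1 to 54.6 and detected on none. A probe that is not detected does not tell absence of the transcript from a level under the detection limit of the array.

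**Figure D2:**
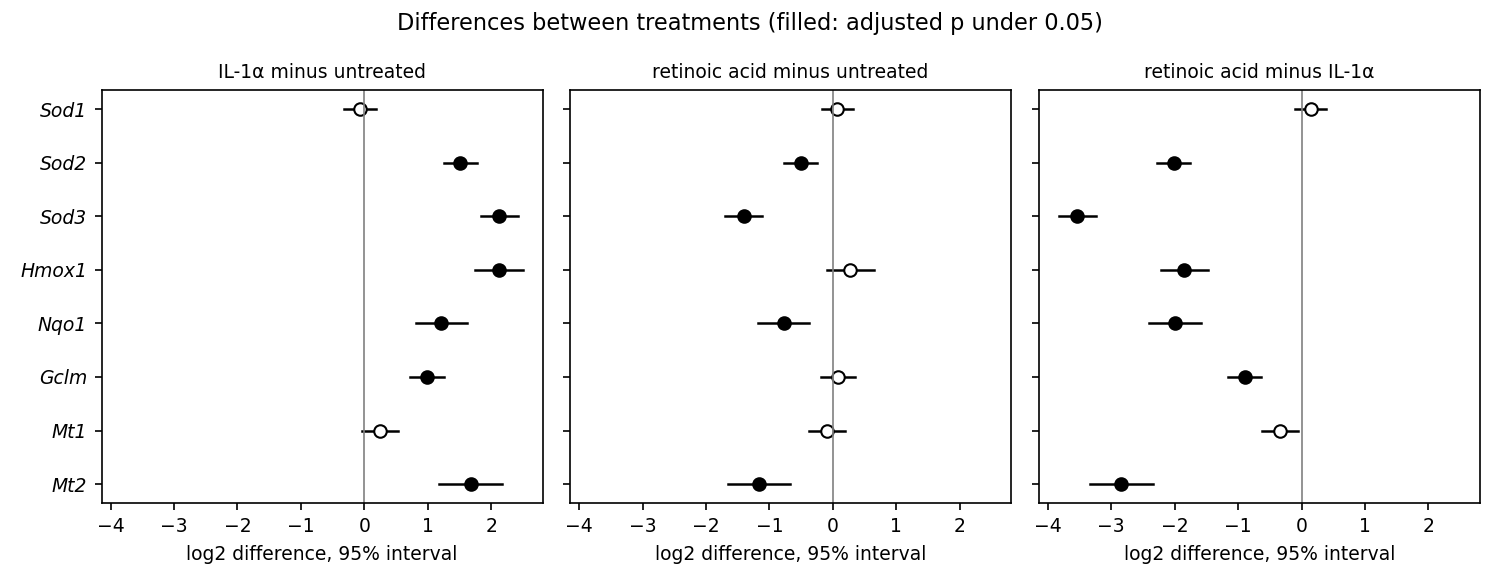
Log2 difference with 95% interval of each tested gene in the 3 comparisons, from limma over all 12 arrays. The 6 genes that rose with IL-1α, from Gclm at 0.98 to Sod3 at 2.13, lie below 0 in retinoic acid against IL-1α, and the intervals of Sod1 cross 0 in all 3 comparisons.

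Among the NRF2 target genes, Hmox1 and Gclm rose with IL-1α and were not called with retinoic acid, while Nqo1 rose with one and fell with the other. Hmox1, for the enzyme that opens the heme ring to release iron, carbon monoxide and biliverdin, gave 10.28, 10.43, 11.49 and 11.40 in untreated cultures (ILMN_2727568). It gave 12.82, 12.54, 13.47 and 13.25 with IL-1α, and 10.48, 10.28, 11.91 and 12.02 with retinoic acid. All 4 IL-1α arrays lay above all others, and the retinoic acid arrays lay above the untreated ones in batch 2 and overlapped them in batch 1. Hmox1 was 4.35-fold higher with IL-1α (log2 difference 2.12, SE 0.17, limma adjusted p = 2.00e-06; exact permutation p = 0.0286), number 48 from the highest of 14317 genes. For retinoic acid the log2 difference was 0.27 (95% interval -0.10 to 0.64, limma adjusted p = 0.246), at 0.02 in batch 1 and 0.52 in batch 2. In batch 2 alone, a split added after seeing the data, it passed (limma adjusted p = 0.0354). The treatment by batch test did not call this difference between the batches (limma interaction adjusted p = 0.309). Red cell markers had sums of 21930 to 28020 in untreated, 25020 to 34300 in IL-1α and 19070 to 32080 in retinoic acid cultures, and 1 of 7 was lower in each treatment against untreated. In retinoic acid against IL-1α cultures 3 of 7 were lower, Slc4a1 at -1.35, Alas2 at -1.06 and Eraf at -0.66 (limma adjusted p = 0.0103, 0.0227 and 0.0494), and 0 higher. Their part in the Hmox1 values was not tested. Retinoic acid cultures were 3.60-fold below IL-1α cultures (limma adjusted p = 2.88e-06).

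Nqo1, whose product reduces quinones by 2 electrons, was measured by 1 detected probe (ILMN_2726371). Untreated values were 8.65, 8.76, 9.72 and 9.20. IL-1α values were 9.77, 9.89, 10.86 and 10.67, and retinoic acid values 8.35, 8.32, 8.26 and 8.29. The treatments did not overlap, and the retinoic acid arrays had a spread of 0.036 (SD, n = 4) against 0.49 without treatment and 0.55 with IL-1α. These spreads include the difference between batches. Means in batch 1 and batch 2 were 8.71 and 9.46 in untreated, 9.83 and 10.77 in IL-1α and 8.33 and 8.28 in retinoic acid cultures. Nqo1 was 2.32-fold higher with IL-1α (log2 difference 1.22, SE 0.19, limma adjusted p = 4.16e-04) and 1.71-fold lower with retinoic acid (log2 difference -0.78, SE 0.19, limma adjusted p = 0.00581). Between the treatments it was 3.98-fold lower with retinoic acid (limma adjusted p = 3.24e-06). Its second probe (ILMN_2766386) was detected on 1 array, with IL-1α, and was not tested.

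Gclm (ILMN_1256354) read 7.72, 7.70, 8.72 and 8.43 in untreated cultures, 8.84, 8.84, 9.36 and 9.47 with IL-1α and 7.73, 7.88, 8.58 and 8.73 with retinoic acid. The IL-1α arrays lay above all others, and retinoic acid and untreated arrays were intermixed. The rise with IL-1α was 1.98-fold (log2 difference 0.98, SE 0.12, limma adjusted p = 8.12e-05). With retinoic acid the log2 difference was 0.09 (95% interval -0.18 to 0.35, limma adjusted p = 0.637), and against IL-1α it was 1.86-fold lower (limma adjusted p = 9.23e-05).

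The metallothionein genes Mt1 and Mt2 are neighbours on mouse chromosome 8, with 5316 bases between the end of Mt2 and the start of Mt1 in GRCm38.p6, and their read-outs are set beside their promoters here because metal response elements are the known control sites of both genes. The windows below, from RefSeq, run from 250 bases before to 50 bases after a transcription start, and are chr8:94172368-94172667 for Mt2 and chr8:94178839-94179138 for Mt1, both on the plus strand. Capitals mark the metal response element core, TGCGCNC or TGCACNC, on either strand.
Mt2: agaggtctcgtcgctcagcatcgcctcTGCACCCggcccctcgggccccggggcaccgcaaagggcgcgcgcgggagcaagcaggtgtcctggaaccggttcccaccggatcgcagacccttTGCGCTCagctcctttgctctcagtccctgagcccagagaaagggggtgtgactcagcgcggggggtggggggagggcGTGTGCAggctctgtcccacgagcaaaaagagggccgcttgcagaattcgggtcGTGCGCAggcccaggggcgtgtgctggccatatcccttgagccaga
Mt1: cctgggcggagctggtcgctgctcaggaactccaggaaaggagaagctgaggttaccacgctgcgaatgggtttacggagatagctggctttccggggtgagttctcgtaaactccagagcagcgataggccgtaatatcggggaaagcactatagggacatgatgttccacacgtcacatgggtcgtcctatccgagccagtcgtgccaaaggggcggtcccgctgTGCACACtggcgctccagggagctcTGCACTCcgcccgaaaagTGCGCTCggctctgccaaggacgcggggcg
The Mt2 window held 4 cores, at -223, -128, -50 and 5 from the start, and the Mt1 window 3, at -23, 3 and 21. The Mt1 gene as annotated begins further 5′, at position 94178883. Of 32851 promoter windows of this length, 25.7% held at least 1 core, 1.97% at least 3 and 0.517% at least 4. An antioxidant response element core, TGACNNNGC, stood at -79 in the Mt2 window, where it overlapped an AP-1 site, TGANTCA. The Gclm window, like that of Mt1, held 3 metal response element cores, at -138, -72 and 28, and the other 4 members in the table held none. The Gclm and Sod1 windows also held the antioxidant response element core, and the windows of Mt1, Nqo1, Sod2 and Cat did not hold these letters, which 12.4% of windows did. Positions and counts depend on the start used for each window. Bases outside the windows were not searched, so sites there would be missed. Hmox1, Sod3 and Gclc were not in the promoter table. The matches are a description of letters and not of binding.

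Mt2 passed the test in all 3 comparisons, rising with IL-1α and falling with retinoic acid. Its probe (ILMN_1219154) gave 9.22, 9.32, 9.33 and 8.88 without treatment. IL-1α values were 10.65, 10.80, 10.82 and 11.17, and retinoic acid values 8.34, 8.73, 7.41 and 7.60. The 3 treatments did not overlap, and the retinoic acid arrays were lower in batch 2 than in batch 1. Mt2 was 3.20-fold higher with IL-1α (log2 difference 1.68, SE 0.23, limma adjusted p = 1.58e-04) and 2.24-fold lower with retinoic acid (log2 difference -1.17, SE 0.23, limma adjusted p = 0.00144). The 2 treatments were 7.17-fold apart (limma adjusted p = 7.73e-07), which put Mt2 at number 49 from the lowest of 14317 genes for retinoic acid minus IL-1α.

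Mt1 (ILMN_2596522) read 13.31, 13.49, 13.66 and 13.41 in untreated cultures, 13.81, 13.53, 13.72 and 13.79 with IL-1α and 13.19, 13.25, 13.36 and 13.71 with retinoic acid. All values lay within about 1 unit of 14.24, the highest value of the normalized scale. The IL-1α arrays lay above the untreated ones within each batch but overlapped over both (log2 difference 0.25, 95% interval -0.04 to 0.53, limma adjusted p = 0.175; exact permutation p = 0.0571). For retinoic acid the log2 difference was -0.09 (95% interval -0.38 to 0.19, limma adjusted p = 0.640). Retinoic acid minus IL-1α gave -0.34 (95% interval -0.62 to -0.05, limma adjusted p = 0.0678), and it passed when the arrays were fitted without the replicate block (limma adjusted p = 0.0452) and without retinoic acid batch 2 replicate 2 (log2 difference -0.47, limma adjusted p = 0.0238). Whether Mt1 and Mt2 differ in their response was not tested. The neural metallothionein gene Mt3 rose with both treatments, by 0.76 with IL-1α and 0.71 with retinoic acid (limma adjusted p = 0.00172 and 0.00182).

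**Figure D3:**
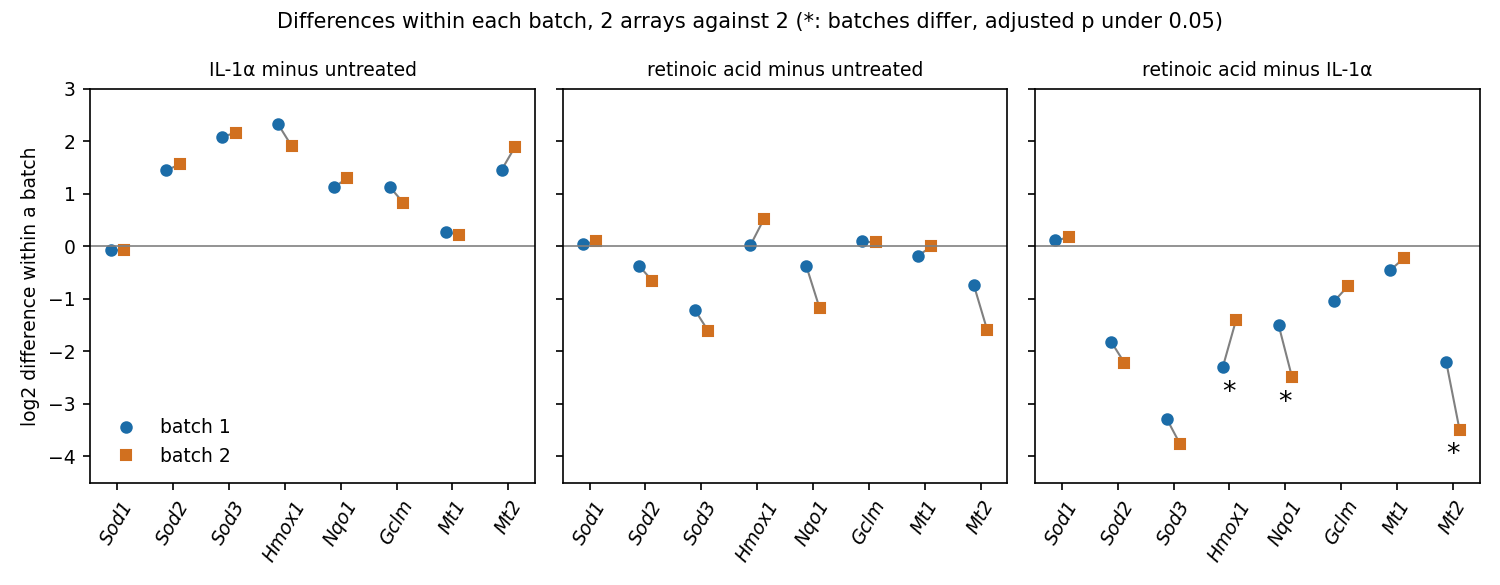
Log2 difference of each tested gene in batch 1 against batch 2 for the 3 comparisons; an asterisk marks a difference between batches that passed the treatment by batch test. Hmox1, Nqo1 and Mt2 carry one, all for retinoic acid against IL-1α.

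The 2 batches gave the same direction for every called difference, and differed in size for retinoic acid against IL-1α. Of all genes, 8.91% had an effect that differed between batches in this comparison, against 3 of the 8 genes here. Hmox1 went from -2.30 in batch 1 to -1.40 in batch 2 (difference 0.91, limma interaction adjusted p = 0.0189). Nqo1 went from -1.50 in batch 1 to -2.49 in batch 2 (difference -0.99, limma interaction adjusted p = 0.0184), and Mt2 from -2.19 to -3.49 (difference -1.30, limma interaction adjusted p = 0.00779). Leaving out any 1 of IL-1α batch 1 replicate 1, retinoic acid batch 1 replicate 2, retinoic acid batch 2 replicate 1 or retinoic acid batch 2 replicate 2 left only Mt2 past the threshold. Nqo1 was also lost without retinoic acid batch 1 replicate 1, IL-1α batch 1 replicate 2 or IL-1α batch 2 replicate 1 (limma interaction adjusted p = 0.0711, 0.0545 and 0.0600), and Hmox1 without IL-1α batch 2 replicate 2 (limma interaction adjusted p = 0.0884). Of the 12 leave-outs, Nqo1 lost its call in 7, Hmox1 in 5 and Mt2 in 0, where its limma interaction adjusted p reached 0.04915. Against untreated cultures 0 of the 8 genes differed between batches with either treatment, where 2.7% of genes did with retinoic acid and 4.57% with IL-1α. Leaving out untreated batch 2 replicate 2 brought Nqo1 and Mt2 past the threshold for retinoic acid (limma interaction adjusted p = 0.0118 and 0.0391).

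Non-overlap of the 4 arrays of 2 treatments held for 5 of the 8 genes in the rise with IL-1α, all but Sod2 of the called ones, against 7.17% of all genes. For the fall with retinoic acid it held for 3 of the 8, Sod3, Nqo1 and Mt2, against 9.1% of all genes, and for retinoic acid below IL-1α it held for 6 of the 8, against 9.83%. Those 6 are the genes that IL-1α raised, and Hmox1 and Gclm among them did not fall with retinoic acid against untreated cultures. The 8 genes were chosen with earlier results of these data known, so the shares of all genes are a description.

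The wider oxidant and metal genes, 176 in 6 lists without the 10 above, included 130 that were tested. With IL-1α 44 were higher and 16 lower (46.2% called, against 30.2% of all genes), and their median log2 difference was 0.19. With retinoic acid 27 were higher and 25 lower (40% called, against 36.7%), and the median was 0.02. The balance of the retinoic acid calls depends on the scaling, since over all genes 50.7% of them were higher after quantile normalization and 65.1% after median scaling, which moved the median of all genes to 0.13. For retinoic acid against IL-1α the shares were 49.5% and 65.8%.

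**Figure D4:**
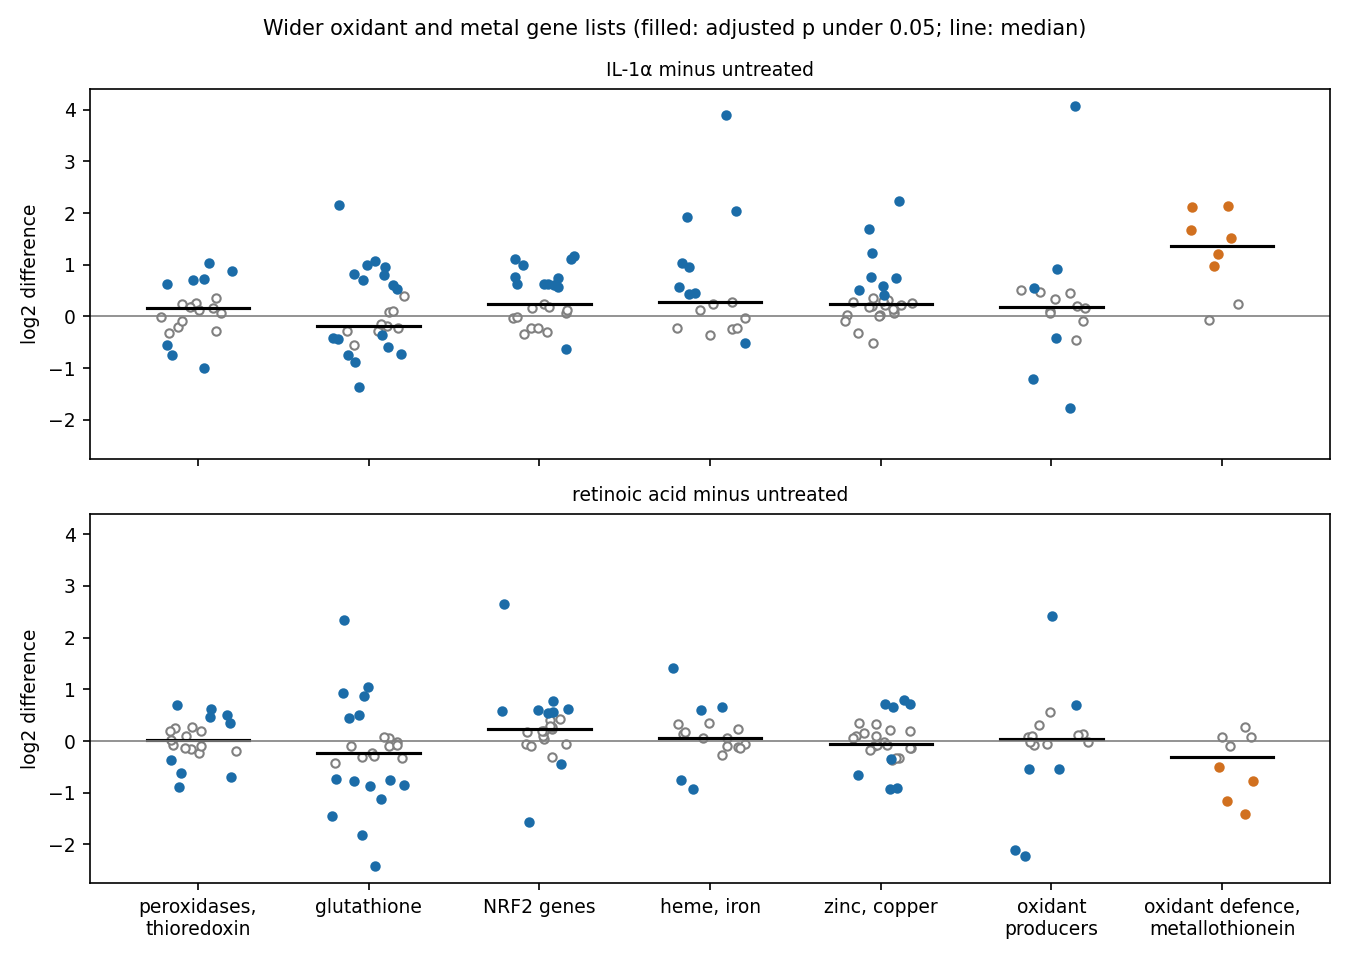
Log2 difference of each tested gene in the 6 wider lists, and of the tested member genes, for IL-1α and for retinoic acid against untreated cultures. Filled points are called genes, and the line is the median of each list. The NRF2 list had 11 higher and 1 lower with IL-1α, and the zinc and copper list 8 higher and 0 lower.

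Among 27 tested genes of glutathione synthesis and conjugation, 9 were higher and 8 lower with IL-1α, and 6 higher and 9 lower with retinoic acid. Slc7a11, the cystine importer that feeds glutathione synthesis, rose by 2.16 with IL-1α (limma adjusted p = 6.03e-06) and was at -0.84 with retinoic acid (limma adjusted p = 0.00516). Gss, glutathione synthetase, rose by 1.08 with IL-1α (limma adjusted p = 1.31e-04) and stood at 0.06 with retinoic acid (limma adjusted p = 0.768). Chac1, which breaks glutathione down, was at -0.87 and -2.42 (limma adjusted p = 0.00155 and 1.39e-07), and Gstk1, a glutathione transferase, at -1.36 and -1.81 (limma adjusted p = 6.03e-05 and 2.08e-06). Ggtla1, a gamma-glutamyltransferase relative, rose by 2.34 with retinoic acid (limma adjusted p = 2.61e-08).

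The 23 tested genes of the list of NRF2 regulators and other targets had 11 higher and 1 lower with IL-1α and 7 higher and 2 lower with retinoic acid. Whether NRF2 drives the listed genes in these cultures was not tested. Nfe2l2, the gene of NRF2 itself, was at 0.63 with IL-1α and 0.60 with retinoic acid (limma adjusted p = 0.0131 and 0.0129), though the IL-1α call was lost with median scaling (0.41, limma adjusted p = 0.125). Keap1, for the protein that holds NRF2 back, passed in no comparison, and its sign turned with median scaling. Nfe2l2, Keap1 and Mt3 with IL-1α were named after their values were seen. Osgin1 rose by 1.12 with IL-1α and 2.65 with retinoic acid (limma adjusted p = 7.69e-05 and 1.75e-08), Taldo1 of the pentose phosphate pathway rose by 1.17 with IL-1α (limma adjusted p = 6.45e-06), and Trib3 was at -1.56 with retinoic acid (limma adjusted p = 1.45e-06). Bach1, a repressor of Hmox1, rose by 0.77 with retinoic acid (limma adjusted p = 6.67e-04).

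Of 21 tested peroxidase and thioredoxin genes, 5 were higher and 3 lower with IL-1α and 5 higher and 4 lower with retinoic acid. Srxn1, which restores oxidised peroxiredoxins, rose by 1.03 with IL-1α and 0.50 with retinoic acid (limma adjusted p = 1.01e-04 and 0.00992). Prdx4, the peroxiredoxin of the endoplasmic reticulum, was at -1 and -0.70 (limma adjusted p = 4.80e-05 and 4.34e-04).

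In heme and iron handling, 8 of 17 tested genes were higher and 1 lower with IL-1α, and 3 were higher and 2 lower with retinoic acid. The iron transporter gene Slc11a2 rose by 2.05 with IL-1α (limma adjusted p = 1.17e-06). The haptoglobin gene Hp was at 1.93 with IL-1α and -0.76 with retinoic acid (limma adjusted p = 3.75e-06 and 0.00336), and the transferrin gene Trf rose by 1.41 with retinoic acid (limma adjusted p = 6.12e-07). In zinc and copper handling, 8 of 26 were higher and 0 lower with IL-1α and 4 were higher and 4 lower with retinoic acid. The zinc importer gene Slc39a14 rose by 2.23 with IL-1α (limma adjusted p = 1.67e-07) and was at -0.07 with retinoic acid (limma adjusted p = 0.724), and Mtf1, the metal sensor that drives metallothionein genes, rose by 0.72 with retinoic acid (limma adjusted p = 0.00104) and was at 0.15 with IL-1α (limma adjusted p = 0.451). Of 16 oxidant-producing enzymes, 3 were higher and 3 lower with IL-1α and 2 higher and 4 lower with retinoic acid. Nos2, inducible nitric oxide synthase, was detected on 4 of 4 arrays with IL-1α and on none of the others, and was at least 14.1-fold higher than in untreated cultures (limma adjusted p = 1.21e-10).

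By Pearson r over the 12 arrays after removal of the batch means, the genes most like Sod3 were Ccl2 (0.993), Ccl7 (0.991) and Slc25a33 (0.985). For Sod2 they were Mfhas1 (0.986), Ccl7 (0.985) and A4galt (0.984), and for Hmox1 Lrig1 (0.988), D930049F02Rik (0.987) and Hmga1 (0.984). Nqo1 and Mt2 were each among the 3 most like the other, at 0.989, with Cnnm2 (0.991) and Ngfb (0.989) beside Nqo1 and Sbsn (0.989) and Gsta4 (0.987) beside Mt2. Gclm was most like Gdf15, Calca and Gss, at 0.983, 0.983 and 0.982. For Mt1 the highest were Cyba (0.925), Stx4a (0.903) and Rpl7l1 (0.899), and for Sod1 LOC675899 (0.917), Atp6v0d1 (0.899) and Rbm4 (0.89). The 12 points share 3 treatments, so that these values are a description.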

How the data were processed

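RNA was measured on 12 Illumina mouse bead arrays, 4 for each treatment, split evenly over 2 batches. The authors deposited probe intensity values on a linear scale, not normalized, and a detection score per probe and array, and 1 minus that score was used as the detection p. The summarising software is not given in the sources used here. In R 4.3.3 with limma 3.58.1, neqc corrected background with the detection p and quantile-normalized the arrays, with an added offset of 16 ahead of the log2 step, as the study's methods name neqc. Probes with detection p under 0.05 on at least 4 of 12 arrays were kept (28432 were removed). The lmFit and eBayes model held treatment and a 4-level term combining batch with replicate, with Benjamini-Hochberg adjustment at 0.05, and a further model had treatment by batch. A gene is given by its brightest kept probe. Exact permutation tests, two-sided, exchanged 8 arrays. Nos2 was undetected in whole groups, and its bound sets the bright group's mean against the higher of the dim probe's signal and the lowest detected signal of each array. Functions were tested on simulated data. The members and lists were chosen with earlier results of these data known. All probes of the members are reported, and of each wider list up to 3 largest rises and falls per comparison were candidates for naming. Alternatives were background correction, scaling, offset, detection filter, probe averaging, block, batch, spread and leaving out each array. The number of arrays limits precision.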

Additional observations from a re-analysis of the deposited data

Results flagged for a closer look

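The difference between retinoic acid and IL-1α cultures changed with the batch, and so with the mouse line, for 3 genes by the treatment by batch term of limma. For Hmox1 the batch 2 minus batch 1 difference was 0.91, from -2.30 to -1.40 (adjusted p = 0.0189). For Nqo1 it was -0.99, from -1.50 to -2.49 (adjusted p = 0.0184), and for Mt2 it was -1.30, from -2.19 to -3.49 (adjusted p = 0.00779). When each of the 12 arrays was left out in turn, Nqo1 lost the call in 7 cases and Hmox1 in 5, and Mt2 kept it in 12. The cause was not tested. Among the 36 groups of 4 arrays examined, 3 treatments for each of 12 probes, 0 held an array far from the others. Each group joins 2 arrays of each batch, so where the batches differ the rule can hardly flag an array. The rate of about 1 in 20 that chance gives without a batch difference does not hold there.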

How the results depend on the processing

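Of 624 log2 differences of the 8 genes under 26 alternatives, 610 kept direction and side of the threshold, 7 lost the call, 7 gained it and 0 turned sign. Without a term for batch or replicate, 2 member genes were called for retinoic acid against untreated in place of 4, and of the wider lists 20, 20 and 27 genes were called for retinoic acid against untreated, IL-1α against untreated and retinoic acid against IL-1α, in place of 52, 60 and 70. In that model Sod2 and Gclm with IL-1α, Sod2 and Nqo1 with retinoic acid, and Gclm between the treatments lost their calls (adjusted p = 0.11, 0.0839, 0.716, 0.118 and 0.0938). Mt1 between the treatments was also called without background correction, with an offset of 50, with trend and robust eBayes, and in batch 1 alone, the last chosen after seeing the data (adjusted p = 0.0349, 0.0388, 0.0257 and 0.0331). Leaving out each array gave 4 to 4 members called for retinoic acid against untreated, 6 to 6 for IL-1α and 6 to 7 between the treatments, and 44 to 53, 49 to 63 and 57 to 71 wider genes. The members whose effect differed between batches ranged from 0 to 2 for retinoic acid against untreated, 0 to 0 for IL-1α and 1 to 3 between the treatments. Arrays with the same replicate number did not deviate together in batch 1, at r of 0.00266 to 0.062. In batch 2 r was 0.182 for untreated and IL-1α, -0.108 for untreated and retinoic acid and 0.391 for IL-1α and retinoic acid. The numbers therefore gave no pairing that held in both batches. The replicate block was kept because the study's methods use it, and without the replicate block, with batch in the model, 4, 6 and 7 members and 57, 63 and 75 wider genes were called. The detection limit of the array affects the dim probes, since Cat and Gclc were not detected on any array.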
